A study of Mus musculus with 20 samples.

Results

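Polycomb proteins keep developmental genes silent in embryonic stem (ES) cells. They work in a pair of large complexes. Polycomb repressive complex 2 (PRC2) methylates histone H3 at a single lysine (H3K27me3). Polycomb repressive complex 1 (PRC1) compacts chromatin and attaches ubiquitin to histone H2A. Here the open chromatin around 10 mouse genes that encode subunits of these complexes was described. Of these, 4 encode the PRC2 core, namely the alternative methyltransferases Ezh2 and Ezh1, the H3K27me3 reader Eed and the scaffold Suz12. Another 2, Jarid2 and Mtf2, encode accessory proteins that bring PRC2 to DNA. The remaining 4 encode PRC1 subunits: the ubiquitin ligases Rnf2 (RING1B) and Ring1 (RING1A), the chromodomain protein Cbx7 and the RING finger protein Pcgf6.

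The chromatin was assayed by ATAC-seq, in which a transposase cuts open DNA, in ZHBTc4 mouse ES cells, a line whose endogenous OCT4 is switched off by doxycycline (dox). The cells carried OCT4 as a SNAP-tagged lentiviral transgene driven by the PGK promoter, fused either to the mitotic degron of Cyclin B1 (SNAP-MD-OCT4), which removes the protein as cells pass from mitosis to G1, or to a mutated degron (SNAP-MD*-OCT4). Both were sorted populations for which no single clone was stated, also carried YPet-MD, and were grown in serum with LIF and 2i, the inhibitors CHIR99021 and PD184352. The 16 libraries behind the values below came from both constructs after 40 h of dox, sorted into 4 phases of the cell cycle (G1, taken early and late, S phase, or late S/G2) with 2 replicates each. Another 4 libraries of unsorted cells without dox did not enter the merged list.

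The data analysed are the positions of the peaks merged over those 16 libraries. They hold no height and no value for any library, so a peak seen in 1 library counts like a peak seen in all, the depth is unknown, and MD-OCT4 could not be compared with MD*-OCT4, nor 1 phase with another, at any of these genes. The list has no replicates and no expression value, so the ES cell label could not be checked against marker genes. Everything below is therefore a description without a test. Intervals for shares are exact 95% intervals that cover counting error only, since neighbouring peaks are not replicates. Intervals for medians, also at 95%, reflect the spread among the genes or peaks counted, which were not a random sample.

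A peak was assigned to a gene when it overlapped the gene body in GENCODE M21 (GRCm38/mm10) or lay within 50000 bp of it. This assigned 168 of the 102373 listed peaks to the 10 genes, or 0.164%, and none was shared between any of them. The outermost assigned peak lay 49675 bp from Suz12 (160 bp wide), and the nearest one left out lay 50532 bp from Eed (680 bp wide). The genes held between 10 and 24 peaks each, with a median of 16.5 (interval 13 to 22). Over all 21938 protein-coding genes the median was 10, with quartiles of 4 and 15. Cbx7 had the most peaks with 24, followed by Jarid2 with 22, Mtf2 with 20, Ezh1 with 18, Eed with 17 and Suz12 with 16. Ezh2 and Pcgf6 had 14 each, Rnf2 had 13 and Ring1 had 10. Thus 9 of the 10 lay above the median of all genes, Ring1 lay on it, and 6 lay above the third quartile. Long genes have longer windows, and the 10 genes were longer (median 42.0 kb) than all protein-coding genes (median 17.4 kb). Per 100 kb of window the 10 genes had a median of 11.6 peaks (interval 8.47 to 13.95, range 7.53 to 15.5) against 6.97 for all genes, and each of the 10 was above 6.97. The values for all genes include 6485 genes without a listed peak at a start site, whereas each of the 10 had one. A comparison with genes that have such a peak was not made.

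**Figure D1:**
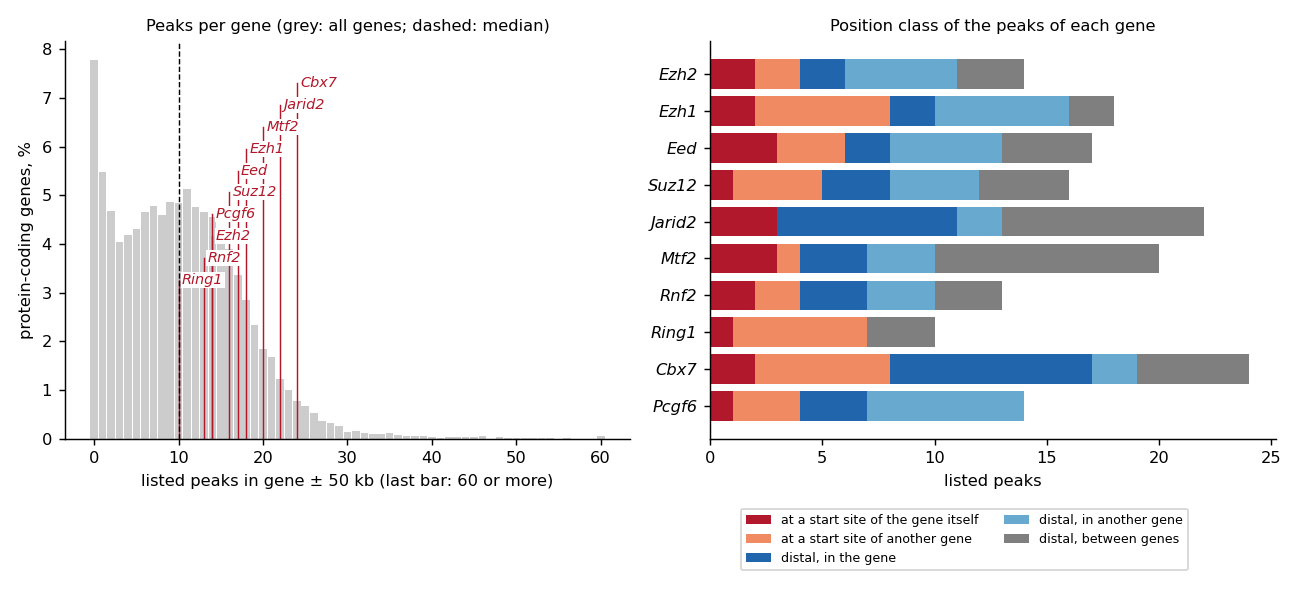
Left, the distribution of listed peaks per gene (x axis, peaks in the gene and 50 kb on either side) over all protein-coding genes (y axis, percent of genes), with the 10 genes marked by red lines and the median of 10 by a dashed line. Right, the peaks of each gene (x axis, number) by position class, where Ring1 has 3 distal peaks of 10 and Jarid2 has 19 of 22.

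The 33 other Polycomb genes of the list used here were close to the 10 in number. They had a median of 16 peaks (interval 12 to 17) and of 10.2 peaks per 100 kb, and 25 of 33 lay above the median of all genes. Their range was wider, from 1 peak at Scml2, an X-linked PRC1-associated gene, to 42 at Auts2, which spans 1106012 bp. Their windows overlap in places, so that 477 distinct peaks made up the 509 assignments, and 5 of these peaks also lay in the windows of the 10 genes. Both medians were close to those of the 10 genes.

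All 10 genes had a listed peak at most 1000 bp from an annotated transcription start site, as had all 33 other Polycomb genes. Over all protein-coding genes the share was 70.4%. The peak lay directly on the annotated 5′ end of 9 of the 10 genes, against 30 of 33 other Polycomb genes (90.9%) and 58.8% of all protein-coding genes. The exception was Jarid2. Its nearest peak, 1375 bp wide, began 524 bp inside the gene at chr13:44729998-44731372, where 13 start sites of its transcripts lay on the peak or at most 1000 bp from it. The RefSeq starts of Jarid2, 1300 and 1797 bp from the GENCODE 5′ end, both lay inside this peak. Among the other Polycomb genes the exceptions were Cbx6 (6 bp away), Kdm2b (127 bp) and Scml2 (45523 bp).

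The width of the peak on the 5′ end differed about as much among the 10 genes as among genes in general. For the 9 genes with such a peak the median was 1183 bp (interval 913 to 1651), against 1287 bp for 30 other Polycomb genes and 1110 bp for 12900 protein-coding genes. Ezh2 had the widest at 1943 bp, at the 96.4th percentile of the 12900, and Eed followed with 1651 bp at the 90.5th. Suz12 had 1411 bp, Rnf2 1351 bp, Pcgf6 1183 bp, Ezh1 965 bp, Cbx7 946 bp, Mtf2 913 bp and Ring1 893 bp. The alternative subunits had peaks of different width at this position. The peak of Ezh2 was wider than that of Ezh1, and that of Rnf2 wider than that of Ring1, the last being at the 24.3rd percentile.

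**Figure D2:**
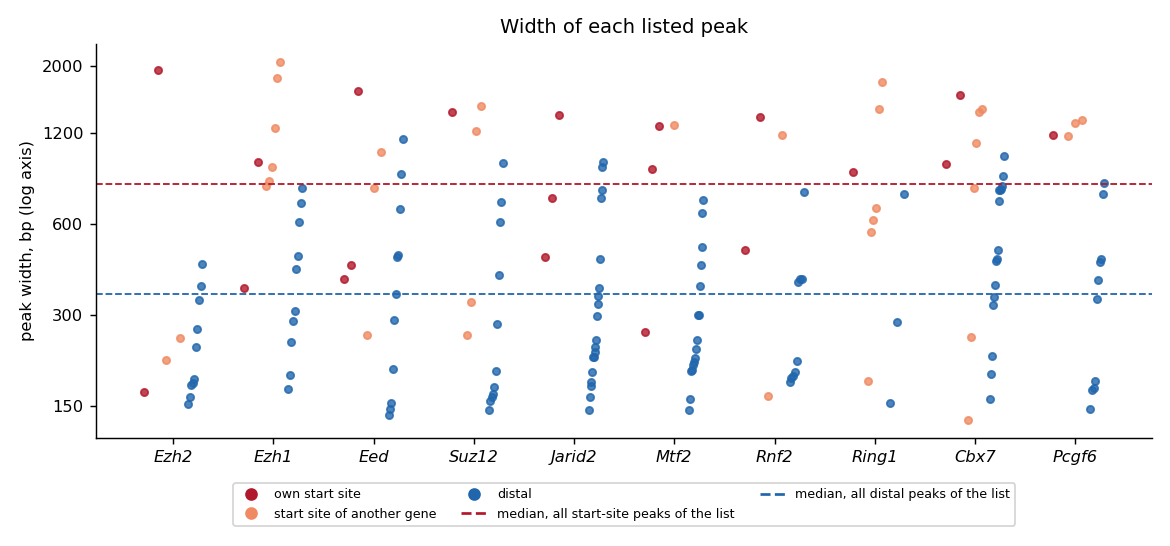
Width of each of the 168 peaks in bp (y axis, log scale) for each gene (x axis), coloured by whether the peak lies at a start site of the gene, at a start site of another gene or distal to all start sites. Dashed lines give the medians of all start-site peaks (815 bp) and of all distal peaks (352 bp) in the list, and the widest point at a gene's own start is that of Ezh2.

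The 10 peaks nearest the 5′ ends differed in base content, and no matching value was taken for the 5′-end peaks of all genes. Their GC content ranged from 51.4% to 72.5% (median 61.9%), and the ratio of observed to expected CpG from 0.481 to 0.948 (median 0.841), with Cbx7 lowest and Eed highest in the latter. Over all 20 peaks at own start sites, internal ones included, the median ratio was 0.697 (interval 0.245 to 0.835), an interval that contains the 0.582 of all start-site peaks of the list. The genes had 10 further peaks at internal start sites, that is at most 1000 bp from one, spread over 7 of the genes. These were different. Their median width was 453 bp and their median CpG ratio 0.216. The 2 with the highest CpG ratio were unlike the rest. One was a 733-bp peak of Jarid2 with a ratio of 0.786 that began 3928 bp from the 5′ end, and the other a 1604-bp peak of Cbx7 with a ratio of 0.607. Only these 2 covered a start site, and the remaining internal peaks lay 53 to 848 bp from the nearest one.

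The Cbx7 peak lay 38005 bp into the gene, at chr15:79931511-79933114, and was the widest of the 24 peaks of Cbx7. On it, or at most 1000 bp from it, were 7 annotated start sites of Cbx7, against 2 at the 946-bp peak on the annotated 5′ end, which lay at chr15:79970595-79971540. RefSeq places the start of Cbx7 at 79932646, inside the wider peak and 38473 bp from the GENCODE 5′ end. Both regions were thus listed as open, and the list does not say which was open more often or in which phase.

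To show the promoter DNA itself, windows from 250 bases before to 50 bases after each RefSeq start were taken from the RefSeq table for GRCm38.p6, which held 12 windows for the 10 genes. Of these, 11 lay wholly inside a listed peak, against 38.9% of all 32851 windows. The remaining one, a second start of Mtf2, was 450 bp from the nearest peak. The windows were searched on both strands for 7 motifs, with no mismatch allowed. The GC box GGGGCGG, bound by SP and KLF factors, was found in 5 of the 12 windows (Jarid2, Mtf2, Rnf2, Cbx7 and Pcgf6, 1 window each) and in 23.2% of all windows. The NFY motif GCCAATC was found in 2 of the 12 (Suz12 and Jarid2) and in 6.83% of all windows. No window of the 10 genes held NRF1 GCATGCGC (2.71% of all windows), ETS CCGGAAGT (3.89%), the E-box CACGTG (7.15%), E2F GGCGGGAA (2.19%) or YY1 AAGATGGC (2.75%). These letters mark exact matches and not bound sites, and near versions of a motif were not counted. With 12 windows a motif at such background shares would often give no match. The absences hold for these windows only. Elsewhere in the wider peaks on the 5′ ends lay matches to E2F (Ezh2, Eed and Rnf2), NRF1 (Eed), the E-box (Suz12) and YY1 (Cbx7). The peaks of Ezh2, Ezh1, Eed, Suz12 and Ring1 likewise held a GC box outside their windows. The peak on the annotated 5′ end of Cbx7 held none. Those of Eed and Cbx7 held the NFY motif. No background share was taken for whole peaks.

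The 160 bases upstream of the RefSeq start follow for the PRC2 core gene Suz12, the accessory gene Mtf2 and the PRC1 genes Rnf2 and Pcgf6, which had a match there, and for Ring1, which had none. The matches are in capitals (the GC box for Mtf2, Rnf2 and Pcgf6, on either strand, and the NFY motif for Suz12), each sequence reads toward the start, and all lie inside the listed peak on the 5′ end. All are from GRCm38.p6.
Suz12, plus strand, chr11:79992946-79993105: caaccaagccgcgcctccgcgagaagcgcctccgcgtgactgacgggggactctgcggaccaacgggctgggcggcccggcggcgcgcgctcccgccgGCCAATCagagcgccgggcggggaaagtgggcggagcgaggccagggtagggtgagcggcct
Mtf2, plus strand, chr5:108065514-108065673: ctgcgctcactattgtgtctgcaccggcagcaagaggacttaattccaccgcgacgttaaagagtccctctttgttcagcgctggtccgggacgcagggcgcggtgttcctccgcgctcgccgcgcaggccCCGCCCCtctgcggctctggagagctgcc
Rnf2, minus strand, chr1:151500992-151501151: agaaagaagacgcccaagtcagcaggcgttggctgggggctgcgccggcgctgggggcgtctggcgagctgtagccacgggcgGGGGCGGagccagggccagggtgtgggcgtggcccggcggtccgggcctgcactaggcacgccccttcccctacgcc
Pcgf6, minus strand, chr19:47050907-47051066: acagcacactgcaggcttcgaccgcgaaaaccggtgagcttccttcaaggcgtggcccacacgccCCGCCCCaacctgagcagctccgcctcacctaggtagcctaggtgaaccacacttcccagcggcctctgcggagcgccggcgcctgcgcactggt
Ring1, minus strand, chr17:34024681-34024840: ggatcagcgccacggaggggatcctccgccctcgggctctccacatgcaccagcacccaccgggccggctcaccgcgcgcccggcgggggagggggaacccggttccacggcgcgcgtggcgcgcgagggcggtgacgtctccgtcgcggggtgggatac
The matches lay 62 bases upstream of the start in Suz12, 29 in Mtf2, 77 in Rnf2 and 95 in Pcgf6, counted to the edge of the motif that is farther from the start.

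Of the 168 peaks, 20 lay at a start site of the assigned gene, 33 at a start site of another gene and 115 were distal, that is more than 1000 bp from any annotated start site. The distal share was 68.5% (interval 60.8 to 75.4), against 74.9% of all listed peaks. The distal peaks were divided between the introns and exons of the 10 genes (35), those of other genes (37) and the space between genes (43). Of the 35 inside the 10 genes, 31 had their centre in an intron, 3 in a non-coding exon and 1, in Cbx7, in a coding exon. Wholly upstream of the 5′ end lay 49 of the 168 peaks.

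**Figure D3:**
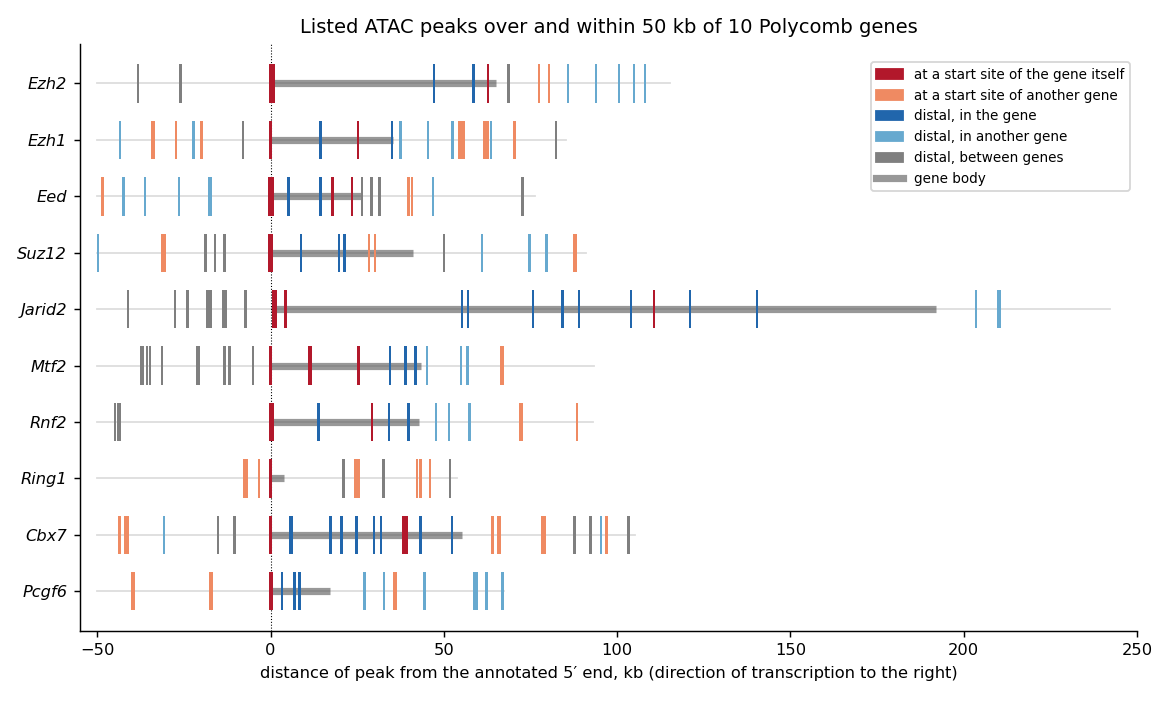
Position of the 168 listed peaks in kb from the annotated 5′ end (x axis, transcription to the right) for each of the 10 genes (rows), with the gene body in grey and peaks coloured by class. Each peak is drawn at its width, or at a fixed minimum width where narrower, and the peak-free stretches inside Ezh2 and Jarid2 and upstream of Rnf2 stand out.

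Among the PRC2 core genes, Ezh2 (chr6:47530139-47595341, minus strand) combined the widest start-site peak with the lowest density, 8.47 peaks per 100 kb of window. Between that peak and the next one in the gene lay 45660 bp without a listed peak, and only 2 of its 14 peaks were upstream, 25870 bp and 38186 bp from the 5′ end. Its 10 distal peaks were narrow, with a median of 210 bp and a widest of 443 bp, and 5 of them lay within introns of the neighbouring Cul1. A further 167-bp peak lay at an internal start site. Peaks covered 2.97% of the gene.

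Ezh1 (chr11:101191115-101226463, minus strand), which can take the place of Ezh2 in PRC2, lay among many other genes. The 5′ ends of 7 other protein-coding genes fell in its window, and 6 of its 18 peaks were at start sites of Tubg2, Plekhh3, Cntnap1, Ramp2, Vps25 and Wnk4. The widest peak of the window, 2064 bp, was at the starts of Plekhh3 and Cntnap1 and not at Ezh1. Of its 10 distal peaks, 2 were in the gene, and the widest, 790 bp, lay 7507 bp upstream. Counts around Ezh1 and Ezh2 thus rest on different kinds of peak, since Ezh2 had 2 at start sites of another gene, both of Cul1, and 0 other 5′ ends in its window.

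Eed (chr7:89954654-89980983, minus strand) shared its 1651-bp start-site peak with E230029C05Rik, a non-coding gene. All 4 distal peaks upstream of Eed lay in introns of that gene, 16919, 25993, 36008 and 42052 bp from the 5′ end of Eed. They were 1144, 675, 473 and 875 bp wide, above the median of 352 bp for all distal peaks. Eed also had 2 peaks at internal start sites and 2 distal peaks in the gene, and downstream a 1037-bp peak at the start of Hikeshi.

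Suz12 (chr11:79993106-80034123, plus strand) had 3 distal peaks between genes upstream, 13097, 15732 and 18291 bp from the 5′ end, of which the farthest was the widest (953 bp). Inside the gene its 3 distal peaks were 173 bp wide or less, and another 2 peaks lay at starts of the non-coding Gm26563. The longest stretch without a peak was 19297 bp. The remaining start-site peaks of the window belonged to Utp6 (1470 bp) and Crlf3 (1221 bp).

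Jarid2, a DNA-binding PRC2 partner (chr13:44729474-44921643, plus strand), was the longest of the 10 genes at 192 kb and had the lowest density at 7.53 peaks per 100 kb. No start site of another gene carried a peak in its window. Of its 22 peaks, 19 were distal, and 9 of these stood between genes upstream, from 6712 to 40994 bp from the 5′ end. The widest of the 9 was the nearest to the gene (924 bp), followed by peaks of 775 bp (23514 bp away) and 731 bp (13153 bp away). Inside the gene the 8 distal peaks were between 161 and 461 bp wide. The longest stretch without a peak of any of the 10 genes, 62929 bp, ran from 140549 bp inside Jarid2 past its end, to peaks in Dtnbp1 introns.

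Mtf2, a Polycomb-like protein that binds CpG-rich DNA (chr5:108065674-108109004, plus strand), had 10 distal peaks upstream, the most of the 10 genes. They lay from 4727 to 37198 bp from the 5′ end, with a widest of 723 bp. Like those of Jarid2 they were between genes. Its second start-site peak, 1267 bp wide and 10775 bp into the gene, was wider than the 913-bp peak on the 5′ end but had a CpG ratio of 0.116 and was 46.7% soft-masked repeat. The start-site peak shared by Tmed5 and Ccdc18 (1278 bp) was the widest of the window.

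Of the PRC1 ligases, Rnf2 (chr1:151458004-151500955, minus strand) had no listed peak for 42758 bp upstream of its 1351-bp start-site peak, which also lay at the start of Gm36527. Beyond that stretch came 3 peaks close together, starting 43169 bp from the 5′ end, of 385, 180 and 395 bp. Inside the gene were 3 distal peaks, of which the widest had 763 bp, and 1 peak of 491 bp at an internal start. Its neighbour Swt1 shared a 1181-bp peak with Trmt1l.

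Ring1 (chr17:34020792-34024680, minus strand), the shortest of the 10 genes at 3.89 kb, showed another layout. It lies beside the histocompatibility genes, and 6 of its 10 peaks were at start sites of other genes, among them H2-K1 (1770 bp), H2-K2 (676 bp), H2-Ke6 (564 bp) and a peak of 1436 bp at Slc39a7 and Rxrb. Its own start-site peak (893 bp) also lay at the starts of Gm26940, Mir219a-1 and Mir219c. It had 3 distal peaks, the fewest of the 10, and none of them was in the gene or upstream.

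Cbx7 (chr15:79915807-79971119, minus strand) had the densest window, with 15.5 peaks per 100 kb, and peaks covered 12.2% of the gene. It had 9 distal peaks in the gene, the most of the 10, from 158 to 864 bp wide. Its distal peaks had a median width of 476 bp, the largest of the 10, and the widest (1009 bp) lay 9927 bp upstream. The longest stretch without a peak was 15145 bp. Other start-site peaks in the window belonged to Apobec3, Pdgfb, Gm41361 and Gm49412.

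Pcgf6 (chr19:47033617-47050906, minus strand), part of a variant PRC1, had no distal peak upstream. The 2 upstream peaks were at the starts of Taf5 (1328 bp) and of Usmg5 and Pdcd11 (1176 bp), 16477 and 39132 bp away. Downstream, 7 distal peaks lay in Nt5c2 and Ina, the widest of 823 bp, and these genes shared a 1298-bp start-site peak. In the gene itself 3 distal peaks lay 3186, 6500 and 8336 bp from the 5′ end.

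The 115 distal peaks had a median width of 300 bp (interval 235 to 374), against 352 bp for all distal peaks. Under 300 bp in width were 57 of them, or 49.6% (interval 40.1 to 59.0), against 41.9% of all distal peaks, and both intervals contain the value of all distal peaks. Their GC content was near that of all distal peaks, at 47.9% against 48.6%. Their repeat content was higher. The median peak was 23.7% soft-masked (interval 16.2 to 33.3), against 12.4%, and 26 of the 115 (22.6%) were masked over most of their length, against 14.02%. Mtf2 had 5 of these 26 and Ezh2 and Suz12 had 4 each, whereas Ring1 had none. Reads from repeats are harder to place, and the part of this in the peaks was not tested.

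To ask which motifs of pluripotency factors and of CTCF these distal elements carry, 6 motifs were searched on both strands. OCT4::SOX2 was searched as CATTGT, any base, ATGCAAAT with up to 2 mismatches. OCT (ATGCAAAT), SOX (CCATTGT), KLF (GGGNGTGG) and ESRRB (TCAAGGTCA) were searched without a mismatch, and CTCF by its 14-letter consensus with up to 1. The OCT letters are part of OCT4::SOX2. No distal peak of the 10 genes held OCT4::SOX2, the composite site of the factor under study. With 0 of 115 the exact interval reaches 3.16%, which includes the 0.731% of all distal peaks, so that a lack of such sites was not detectable at this number of peaks.

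Each of the other motifs was found at a share near its background. KLF was found in 25 peaks, or 21.7% (interval 14.6 to 30.4), against 21.4% of all distal peaks. CTCF was found in 16, or 13.9% (8.17 to 21.6), against 13.6%. For SOX the count was 7, or 6.09% (2.48 to 12.1), against 9.55%. OCT was found in 4, or 3.48% (0.956 to 8.67), against 2.52%, and ESRRB in 2, or 1.74% (0.211 to 6.14), against 3.08%. Any of the 6 was present in 43 peaks (37.4%), against 42.9%. All of these intervals contain the share of all distal peaks.

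**Figure D4:**
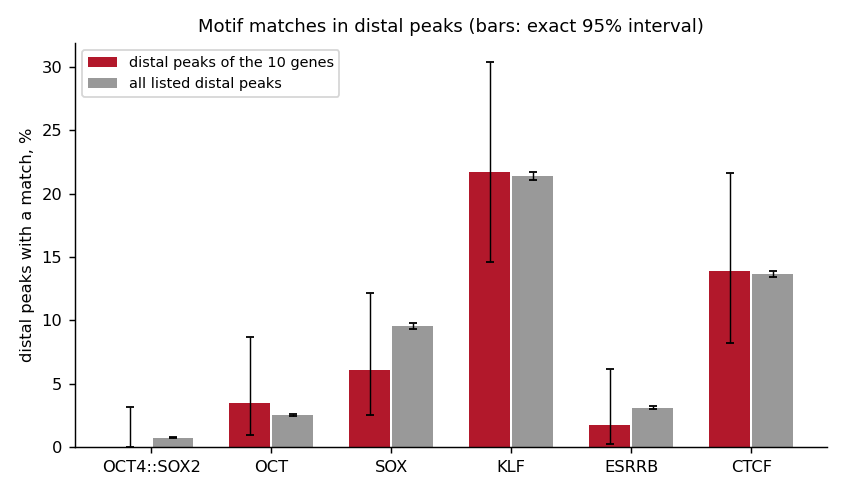
Share of distal peaks with a motif match in percent (y axis) for 6 motifs (x axis), for the 115 distal peaks of the 10 genes (red) and all 76716 listed distal peaks (grey). Error bars are exact 95% intervals, and each red interval contains the grey value.

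The OCT octamer is shown because OCT4 is the factor that the degron removes. Its 4 matches in distal peaks, in capitals and with up to 20 bases on either side, were those of Jarid2, Mtf2, Suz12 and Ezh1.
Jarid2, minus strand, chr13:44705648-44705695: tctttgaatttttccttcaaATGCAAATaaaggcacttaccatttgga
Mtf2, plus strand, chr5:108028947-108028994: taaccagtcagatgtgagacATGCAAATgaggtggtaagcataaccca
Suz12, plus strand, chr11:79976942-79976989: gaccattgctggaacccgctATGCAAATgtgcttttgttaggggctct
Ezh1, plus strand, chr11:101211738-101211785: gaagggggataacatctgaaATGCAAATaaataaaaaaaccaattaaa
The Jarid2 match was the one outside soft-masked sequence, in the 775-bp peak between genes 23514 bp upstream. The others were in peaks that were 94.7% (Mtf2), 93.7% (Suz12) and 54.7% (Ezh1, an intron) soft-masked. Over all distal peaks 25.8% of OCT matches were soft-masked. Outside the distal peaks, the octamer was also present in the 1267-bp internal start-site peak of Mtf2. The 1470-bp peak at the start of Utp6, in the window of Suz12, held it as well.

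The SOX matches of Jarid2 are shown beside it, because they lie in the same run of upstream peaks. The 217-bp peak 17479 bp from the 5′ end had 1 match and the 924-bp peak 6712 bp from it had 2, none of them soft-masked.
Jarid2, plus strand, chr13:44711819-44711865: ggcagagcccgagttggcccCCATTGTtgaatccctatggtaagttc
Jarid2, plus strand, chr13:44722291-44722337: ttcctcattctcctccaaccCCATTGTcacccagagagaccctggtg
Jarid2, minus strand, chr13:44722496-44722542: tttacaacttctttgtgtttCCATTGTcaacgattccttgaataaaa
The other SOX matches were 2 in Ezh2 peaks and 1 each for Rnf2, Cbx7 and Pcgf6.

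Cbx7 had more distal peaks with a KLF or a CTCF match than any of the other genes. Of its 16 distal peaks, 8 had a KLF match and 5 a CTCF match, beside shares of 21.4% and 13.6% among all distal peaks. The distal peaks of Cbx7 also had the largest median width (476 bp) and GC content (53.6%) of the 10 genes, and the part of these in the matches was not tested. CTCF is the factor that anchors chromatin loops. Of its 17 matches in the distal peaks 6 had no mismatch, and that of Cbx7 lay in an intron 24638 bp from the 5′ end.
Cbx7, plus strand, chr15:79946177-79946230: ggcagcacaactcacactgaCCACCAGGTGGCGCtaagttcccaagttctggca
No distal peak of Ezh2 or Jarid2 held a CTCF match. Of the 31 KLF matches 15 were soft-masked, or 48.4%, against 40.2% of the matches in all distal peaks.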

How the data were processed

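ATAC-seq libraries were aligned by the authors to GRCm38/mm10 with STAR 2.6.1c, duplicates were removed with Picard, peaks were called with MACS2 2.1.1.20160309 in paired-end mode and merged with bedtools, per the methods and the submitters' processing notes. The deposited list gives the position of each merged peak it holds and no other measurement. The methods name a width filter, but 7 listed peaks exceeded 5000 bp, 0 of them at the 10 genes. Whether input and blacklisted regions were removed was not tested.

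Positions were counted from 1. Start sites (132629) were those of all GENCODE M21 transcripts. A peak was proximal at 1000 bp or less from any of them. Genes were taken from the member list, peaks were named if nearest a 5′ end, widest distal, outermost or with a motif match, and other genes if a start site lay at a peak. Further peaks, and Cul1, Dtnbp1, Scml2, Auts2, Cbx6 and Kdm2b, were named after their values were seen. The members and lists were chosen with earlier results of these data known. Intervals for medians use binomial order statistics and those for shares are Clopper-Pearson, at 95%. Repeats are the soft-masked bases of the RefSeq genome. Counting, distances and motif search were checked on simulated data. The work used scipy 1.17.1, matplotlib 3.10.9, pandas 2.3.3 and numpy 2.4.6 under Python 3.11.15.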

Additional observations from a re-analysis of the deposited data

How the results depend on the processing

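No paired analysis was possible because no library has values of its own in the merged positions. The 10 genes kept a start-site peak under all 6 alternatives, down to a peak covering the start site. The number of assigned peaks follows the window, with 57 in the gene bodies, 75 within 10000 bp and 262 within 100000 bp, and was 101 among peaks of at least 300 bp. The median per gene was then 5, 7, 26 and 10, and 11.5 within 50000 bp of the 5′ end, while over all genes it was 2, 3, 16 and 6 under the first 4 settings. The median per 100 kb was 14.2 in gene bodies and 7.59 for distal peaks. The distal share was 60.1% with a limit of 2500 bp and 81.0% with start sites of protein-coding transcripts alone. With 1 more mismatch the motif shares were 4.35% (OCT4::SOX2), 30.4% (OCT), 56.5% (SOX), 68.7% (KLF), 17.4% (ESRRB) and 28.7% (CTCF), against 5.42%, 29.4%, 66.2%, 73.3%, 19.9997% and 29.2% of all distal peaks. In the central 200 bp they were 0.870% (OCT), 5.22% (SOX), 12.2% (KLF), 1.74% (ESRRB) and 7.83% (CTCF), against 1.25%, 5.37%, 11.9%, 1.59% and 9.31%, and OCT4::SOX2 had 0 against 0.374%. Of 47 alternatives 25 stayed within 1.5 times the count or within the interval.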
